A study of Mus musculus with 12 samples.

Results

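Epithelial structural genes were read in RNA-seq libraries of ILC3s sorted from the mouse small intestine. The set holds 10 genes, chosen by name out of 23284 genes with a value in each library, namely the keratins Krt8, Krt18, Krt19 and Krt20, the claudins Cldn3, Cldn4, Cldn7 and Cldn15, and the adhesion molecules Epcam and Cdh1. An ILC3 is a group 3 innate lymphoid cell, a lymphocyte that can make IL-17A and IL-22. ILC3s are not epithelial cells, so the level of these genes is a measure of epithelial RNA in the sort. The study asked how a milk diet rich in palmitic acid, a long-chain saturated fatty acid, acts on intestinal ILC3s of the offspring.

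The 12 libraries, from HR-1 hairless mice of 18 weeks, formed 4 groups of 3, by milk diet and by intestinal layer. PA milk mice were nursed by dams on chow with added palmitic acid, and ND mice by dams on normal chow. All pups ate normal chow after weaning. The move of newborn pups to a foster dam is described for the milk of fatty acid-fed dams only, so fostering and diet cannot be told apart. IEL stands for the intraepithelial layer and LP for the lamina propria, the connective tissue beneath the epithelium. IEL cells were shaken off with EDTA and DTT, whereas LP cells were freed from the remaining tissue by collagenase and DNase, and the Percoll gradients differed too, so layer and preparation cannot be told apart. Cells of all 4 groups were sorted for Thy1.2, CD25 and Nrp1 and for the absence of lineage markers. The study's methods add CD4 to this gate and a legend adds CD45, the pan-leukocyte marker, in its place, and the sources used here do not settle which was used. The cDNA was amplified with SMART-Seq v4. Libraries carried the numbers 1 to 3 for each diet in both layers, and the labels do not say whether a library is 1 mouse or a pool, so p-values measure the spread between these libraries only.

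Keratins 8, 18, 19 and 20 build the intermediate filaments of simple epithelia: a type II keratin, here K8, pairs with a type I keratin, here K18, K19 or K20. Claudins seal the tight junction between neighbouring epithelial cells or form its ion pores. E-cadherin, the product of Cdh1, holds cells together at the adherens junction and is also the ligand of CD103 on intraepithelial lymphocytes. EpCAM is a surface protein of intestinal epithelial cells that binds claudin-7 and keeps it at the membrane. Epcam and Cdh1 are also known from a few leukocytes, such as Langerhans cells, whereas keratins and claudins of this set are typical of epithelium.

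Promoter sequences were available from RefSeq for 8 of the 10 genes, in 9 windows of 300 bases that run from 250 bases before to 50 after a start site on GRCm38.p6. Krt19 and Cdh1 had none. The 6 shown here are those of Krt8, Cldn7, Krt20 and Cldn3, the genes that varied most closely together over the libraries, and of Epcam and Krt18, whose likeness to them differed with the libraries used, as described further down. Capitals mark CAGGTG or its reverse complement CACCTG, the E-box bound by Snail and Zeb repressors of epithelial genes, and TATAAA or its reverse complement TTTATA.
Krt8, chr15:102004293-102004592, minus strand: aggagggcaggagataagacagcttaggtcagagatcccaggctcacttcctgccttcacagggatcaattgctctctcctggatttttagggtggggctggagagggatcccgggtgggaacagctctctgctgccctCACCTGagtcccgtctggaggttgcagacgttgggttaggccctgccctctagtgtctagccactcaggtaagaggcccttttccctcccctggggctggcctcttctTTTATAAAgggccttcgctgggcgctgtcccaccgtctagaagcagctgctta
Cldn7, chr11:69965171-69965470, plus strand: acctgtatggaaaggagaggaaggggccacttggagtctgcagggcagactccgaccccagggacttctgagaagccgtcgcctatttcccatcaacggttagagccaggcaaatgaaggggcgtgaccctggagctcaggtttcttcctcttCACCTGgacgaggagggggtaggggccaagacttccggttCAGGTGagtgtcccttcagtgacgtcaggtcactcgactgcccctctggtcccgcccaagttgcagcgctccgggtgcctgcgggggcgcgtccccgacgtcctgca
Krt20, chr11:99438104-99438403, minus strand: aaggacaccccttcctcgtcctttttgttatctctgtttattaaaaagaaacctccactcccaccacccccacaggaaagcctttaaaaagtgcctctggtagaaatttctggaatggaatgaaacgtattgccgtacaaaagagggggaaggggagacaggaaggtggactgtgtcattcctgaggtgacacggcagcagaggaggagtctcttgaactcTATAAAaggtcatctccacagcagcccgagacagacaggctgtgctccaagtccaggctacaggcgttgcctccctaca
Cldn3, chr5:134985964-134986263, plus strand: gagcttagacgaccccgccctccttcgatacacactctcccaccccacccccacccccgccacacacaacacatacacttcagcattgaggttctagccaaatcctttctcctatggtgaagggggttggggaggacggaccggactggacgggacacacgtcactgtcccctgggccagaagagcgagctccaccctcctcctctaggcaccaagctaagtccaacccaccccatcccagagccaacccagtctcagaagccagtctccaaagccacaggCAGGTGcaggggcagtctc
Epcam, chr17:87635729-87636028, plus strand: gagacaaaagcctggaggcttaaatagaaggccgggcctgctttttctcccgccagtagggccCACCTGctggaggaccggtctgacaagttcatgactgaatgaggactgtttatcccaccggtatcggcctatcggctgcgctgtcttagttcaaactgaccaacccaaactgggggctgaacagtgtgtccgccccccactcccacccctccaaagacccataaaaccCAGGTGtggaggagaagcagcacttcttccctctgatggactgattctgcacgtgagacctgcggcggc
Krt18, chr15:102027966-102028265, plus strand: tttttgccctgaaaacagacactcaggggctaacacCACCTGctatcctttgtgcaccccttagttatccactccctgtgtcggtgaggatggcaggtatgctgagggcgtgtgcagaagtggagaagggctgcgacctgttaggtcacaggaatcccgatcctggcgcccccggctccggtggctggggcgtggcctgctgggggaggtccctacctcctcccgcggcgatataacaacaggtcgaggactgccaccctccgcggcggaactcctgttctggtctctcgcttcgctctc

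On both strands, CAGGTG was found in 6 of the 9 windows, against 20.2% of all 32851 promoter windows of this length. They belong to Krt8, Krt18, Cldn3, Cldn4, Cldn7 and Epcam. Cldn7 alone has 2 windows. Cldn4, Cldn7 and Epcam each held 2 copies in 1 window, and the Epcam copies begin at bases 64 and 232 of the sequence above. TATAAA was found in 2 of the 9 windows, those of Krt8 and Krt20, against 13.6% of all windows. The 2 matches in Krt8, which begin at bases 248 and 250, overlap on opposite strands. CCACCC, the core of KLF-type sites, was found in 7 of the 9 windows, against 31.5% of all windows, and for Cldn7 in the window not shown. GGGCGG, the GC box, was found in 5 of the 9, against 35.7%. In none of the 9 windows did a match of 1 motif overlap that of another, and 2 of the CCACCC matches of Cldn3 share a base. A match says only that the letters stand in the window.

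Depth was similar across the groups, but 2 libraries stood apart. Reads per library, worked out from the smallest step between values, ranged from 8.76 to 14.59 M, and scaled counts summed to between 9376529 and 11710874. FPKM of at least 1 was reached by 4390 genes in PA milk IEL replicate 2 and by 5637 in PA milk LP replicate 2, against 7863 to 11378 in the other libraries. Those 2 libraries held 5 and 8 of the 10 epithelial genes at 1 FPKM or more, against 9 or 10 in each of the others. Ptprc, which encodes CD45 of all leukocytes, was at 0.0433 FPKM in PA milk IEL replicate 2 and between 22.0 and 76.8 in the rest. The low Ptprc did not extend to the summed level of leukocyte genes: 20 common leukocyte genes summed to 5137 FPKM in that library, the highest sum of all libraries. Of the 20, 17 were at 1 FPKM or more there, against 16 in PA milk LP replicate 2 and 18 to 20 in the others. The 8 genes that every cell uses (Actb, Gapdh and others) were never at 0, with a lowest value of 115 FPKM. In these bulk samples, fewer cells of a type and less RNA per cell cannot be told apart.

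Epithelial RNA was abundant in this lymphocyte sort. By the median over the 12 libraries, Krt8 stood at 1216 FPKM, above 99.7% of the 12502 genes tested, and Krt19 at 492 FPKM, above 98.6%. Cldn7 followed at 275 FPKM, Epcam at 265, Cldn3 at 197.5, Krt18 at 159, Krt20 at 82.8, Cldn15 at 78.1 and Cdh1 at 40.0 FPKM. FPKM is set per gene length, so these levels may be ranked between genes. Cldn4 was the exception, at 1.29 FPKM and above 22.3% of the tested genes. It reached 1 FPKM in 6 libraries, was under 3 reads in 5 and was listed at 0 in 3. Ranked by the group mean, ND IEL was the highest of the 4 groups for 8 of the 10 genes, and PA milk LP the lowest for 9. Cdh1 was highest in PA milk IEL, Krt18 highest in ND LP, and Cldn4 lowest in PA milk IEL. The first and second groups in this order overlapped for every gene. The 2 groups in the middle of the order were apart from each other for Cdh1 and Krt20 only. The lowest group was apart from its neighbour for Krt8 and Cldn15, and by value for Cldn4. For Cldn4 the gap was 0 against 1 read in PA milk LP replicates 1 and 2, which gives no order at this depth.

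**Figure D1:**
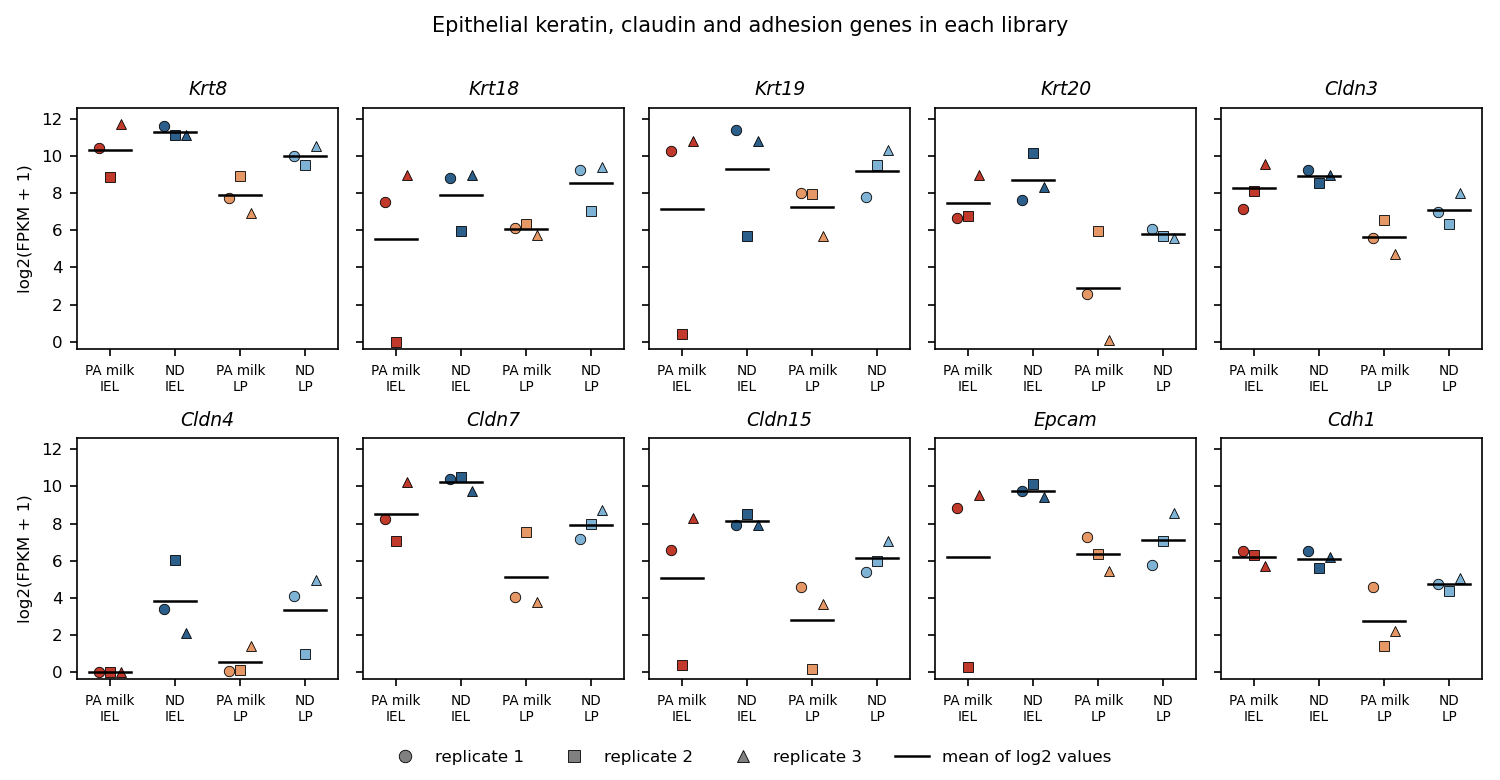
Level of each of the 10 genes in each of the 12 libraries, as log2(FPKM + 1) on the y axis, by diet and layer on the x axis, with the marker shape giving the replicate number and the bar the mean of the log2 values. In PA milk IEL, replicate 2 (square) is at or near 0 for Epcam, Krt18, Krt19 and Cldn15, while Krt8, Krt20, Cldn3, Cldn7 and Cdh1 stay at 77.0 FPKM or more in the same library. Cldn4 is at 0 in all 3 PA milk IEL libraries.

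Krt8 (chr15:101996698-102004482, minus strand, GRCm38), which encodes the type II keratin of this set, was the highest of the 10 genes in 10 of 12 libraries. In PA milk IEL it was at 1385, 462 and 3461 FPKM in replicates 1, 2 and 3, and in ND IEL at 3145, 2227 and 2252. In PA milk LP it was at 216, 492 and 121 FPKM, and in ND LP at 1047, 721 and 1509. The PA milk LP libraries all lay below those of ND LP, while the IEL groups overlapped because PA milk IEL replicate 3 was the highest of all. The gene overlaps the lincRNA Gm36026 on the opposite strand, and the kit does not mark strand, so reads of the pair cannot be told apart.

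Krt18 (chr15:102028180-102032027, plus strand), a type I partner of K8, lies 23.7 kb from Krt8 with no annotated gene between them. It was at 186.5, 0 and 514 FPKM in PA milk IEL, at 445, 60.9 and 502 in ND IEL, at 67.9, 81.4 and 51.8 in PA milk LP, and at 600, 131 and 685 in ND LP. All PA milk LP libraries were below all ND LP libraries. The ratio of Krt8 to Krt18 was not fixed: it ran from 1.74 to 36.6, the highest value being that of ND IEL replicate 2, and could not be formed in PA milk IEL replicate 2, where Krt18 was listed at 0.

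Krt19 (chr11:100140810-100148665, minus strand), a type I keratin without the usual tail domain, was at 1260, 0.312 and 1827 FPKM in PA milk IEL and at 2696, 50.2 and 1816 in ND IEL. In PA milk LP it was at 261, 248 and 51.4 FPKM, and in ND LP at 223, 723 and 1306. Replicate 2 was the lowest library of both IEL groups, and the LP groups overlapped through ND LP replicate 1.

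Krt20 (chr11:99428403-99438150, minus strand), the type I keratin of differentiated cells at the villus, separated the layers. It was at 99.1, 108 and 513 FPKM in PA milk IEL and at 196, 1166 and 328 in ND IEL, but at 4.93, 61.5 and 0.0531 in PA milk LP and at 66.5, 50.8 and 46.7 in ND LP. The lowest IEL library was above the highest LP library. In PA milk LP replicate 3 the value was under that of 3 reads.

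Cldn3 (chr5:134986214-134987472, plus strand), a sealing claudin, was at 140, 274 and 757 FPKM in PA milk IEL and at 610, 376 and 511.5 in ND IEL. It was at 47.7, 92.2 and 25.6 FPKM in PA milk LP and at 126, 81.1 and 254.5 in ND LP. The diets overlapped in both layers, in LP only through PA milk replicate 2 and ND replicate 2. The gene overlaps Wbscr25 on the opposite strand, which these unstranded reads cannot separate from it.

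Cldn7 (chr11:69964779-69967885, plus strand), the claudin that binds EpCAM, was at 303, 131 and 1201 FPKM in PA milk IEL and at 1328, 1480 and 859 in ND IEL. In PA milk LP it was at 15.6, 185 and 12.5 FPKM, and in ND LP at 140, 247 and 423. PA milk LP replicate 2 lay above ND LP replicate 1, and the other 2 PA milk LP libraries lay well below the ND range. The ratio of Cldn7 to Cldn3 ran from 0.327 to 3.94.

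Cldn15 (chr5:136966616-136975858, plus strand), which forms the sodium pore of the small intestine, was at 93.2, 0.310 and 316 FPKM in PA milk IEL and at 242, 366 and 240 in ND IEL. It was at 22.9, 0.111 and 11.5 FPKM in PA milk LP and at 40.6, 63.0 and 134.5 in ND LP. All PA milk LP libraries were below all ND LP libraries, and replicate 2 was the lowest library of both PA milk groups.

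Cldn4 (chr5:134945119-134946934, minus strand) lies 39.3 kb from Cldn3 on the other strand, with no annotated gene between them, and encodes a further tight junction claudin. It was listed at 0 in all 3 PA milk IEL libraries and was at 9.31, 64.5 and 3.32 FPKM in ND IEL. It was at 0.0486, 0.0569 and 1.65 FPKM in PA milk LP and at 16.3, 0.935 and 30.3 in ND LP. Against a floor of 3 reads in each PA milk IEL library, 0.158 FPKM on average, the ND IEL mean of 25.7 FPKM was at least 162-fold higher. That mean rests largely on ND IEL replicate 2, so the fold is no lower bound for replicates 1 and 3. This floor covers counting error only.

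Epcam (chr17:87635979-87651129, plus strand) was at 463.5, 0.196 and 742 FPKM in PA milk IEL and at 850, 1133 and 686.5 in ND IEL. It was at 151, 80.7 and 41.9 FPKM in PA milk LP and at 53.3, 134 and 380 in ND LP. The IEL groups overlapped through PA milk replicate 3 alone, and the LP groups overlapped more broadly. The ratio of Epcam to Ptprc ran from 0.648 to 33.7 over the libraries. In PA milk IEL replicate 2, where it was 4.53, both genes were under 1 FPKM.

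Cdh1 (chr8:106603351-106670246, plus strand) was the steadiest of the 10 genes in IEL. It was at 90.6, 77.0 and 51.5 FPKM in PA milk IEL and at 91.3, 47.6 and 72.6 in ND IEL, with full overlap of the diets. It was at 22.6, 1.65 and 3.59 FPKM in PA milk LP and at 25.6, 19.5 and 32.4 in ND LP. All 6 IEL libraries lay above all 6 LP libraries. PA milk IEL replicate 2, in which Epcam was at 0.196 FPKM, was within the range of the others for Cdh1.

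The first comparison, PA milk minus ND in IEL, asks how the diet acts within the epithelial layer. Of the 10 genes, 9 had a lower fitted level in PA milk, against 60.5% of all tested genes, but none passed the test. Their median log2 fold change was -1.92, against -0.30 over all genes tested. All fold changes here are from limma on log2(FPKM + 1), which understates the change of low genes, with Benjamini-Hochberg adjustment over the 12502 genes that reached 1 FPKM in at least 3 libraries. The largest difference was that of Cldn4, -3.84 ± 1.26 (SE, 95% confidence interval -6.51 to -1.16, limma adjusted p = 0.947), and it was the only one of the 10 whose groups did not overlap, against 5.22% of all genes. Epcam followed with -3.55 ± 1.65 (limma adjusted p = 0.947), so that 2 of the 10 genes were lower at an unadjusted p under 0.05, against 2.82% of all genes. Cldn15 had -3.03 ± 1.58, Krt18 -2.39 ± 1.63, Krt19 -2.13 ± 2.05 and Cldn7 -1.71 ± 0.91. The smallest differences were those of Krt20 at -1.25 ± 1.19, Krt8 at -0.94 ± 0.59, Cldn3 at -0.67 ± 0.69 and Cdh1 at 0.06 ± 0.95.

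Across all genes, limma called 0% of the 12502 in IEL at an adjusted p of 0.05, with 447 genes at an unadjusted p under 0.05, and limma-voom on estimated reads also called 0. The IEL difference of the epithelial genes rested largely on PA milk replicate 2, with 4390 genes at 1 FPKM. When PA milk IEL replicate 2 and PA milk LP replicate 2 were left out, the median of the 10 genes became -0.58, against 0.00 over all genes, Epcam became -0.57, Cldn15 -0.69, Krt18 0.37 and Krt19 1.27, and Cldn4 stayed at -3.84. For a single gene in 3 and 3 libraries, the smallest p that exact permutation allows is 0.1.

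In LP, the same comparison gave lower fitted levels in PA milk for all 10 genes, against 62.2% of all tested genes. The median of the 10 was -2.33, against -0.36 over all genes, and no gene of the 10 passed the test after adjustment. Krt8 had the smallest p, with a log2 fold change of -2.15 ± 0.59 (SE, 95% confidence interval -3.41 to -0.89, limma adjusted p = 0.891). Cldn7 had -2.83 ± 0.91 (-4.76 to -0.89, limma adjusted p = 0.979) and Krt20 -2.91 ± 1.19 (-5.45 to -0.38, limma adjusted p = 0.979). Cldn4 at -2.83 ± 1.26, Cldn3 at -1.49 ± 0.69 and Cldn15 at -3.36 ± 1.58 were also at an unadjusted p under 0.05. That made 6 of the 10 genes, against 4.04% of all genes. Cdh1 had -2.0 ± 0.95, Krt18 -2.50 ± 1.63, Krt19 -1.99 ± 2.05 and Epcam -0.79 ± 1.65. Krt8, Krt18 and Cldn15 did not overlap between the diets, 3 of 10 against 6.6% of all genes.

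Limma called 0% of the 12502 genes in LP, with 588 at an unadjusted p under 0.05, and limma-voom called 3. Without PA milk IEL replicate 2 and PA milk LP replicate 2, the 10 genes were still all lower, with a median of -2.48 against -0.05 over all genes. Cldn7 then had -4.04 ± 0.60 (limma adjusted p = 0.0602) and Krt8 -2.68 ± 0.45 (limma adjusted p = 0.0919). Over the alternatives, the adjusted p ran from 0.0602 to 1 for Cldn7 and from 0.0919 to 1 for Krt8. Scaling the libraries on 20 genes common to leukocytes gave a median of -1.72 for the 10 genes, with all genes at -0.01. With that scaling, limma left none of the 10 genes at an unadjusted p under 0.05, and Krt8 had -1.55 ± 0.81. Limma-voom left only Cldn4 there, at -5.21 ± 2.06 (limma-voom adjusted p = 0.795). In that fit Krt8 was at -2.21 ± 16.44, Cldn7 at -3.01 ± 4.49 and Krt20 at -4.38 ± 7.78. These SEs lie far above the 0.59, 0.91 and 1.19 of the reported fit. With sample quality weights, limma had Krt8, Krt18, Krt20, Cldn3, Cldn7 and Cldn15 at an unadjusted p under 0.05.

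The difference between the layers in the diet effect was tested directly. The diet effect in LP minus that in IEL ranged from -2.06 for Cdh1 to 2.76 for Epcam on the log2 scale, with a median of -0.57 and 3 of the 10 above 0. For Epcam the 95% confidence interval was -2.21 to 7.72. None of the 10 reached an unadjusted p under 0.05, against 2.34% of all genes, and limma called 0% of the 12502 genes. The layers were not shown to differ in the diet effect on these genes, and intervals of this width do not exclude large differences.

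**Figure D2:**
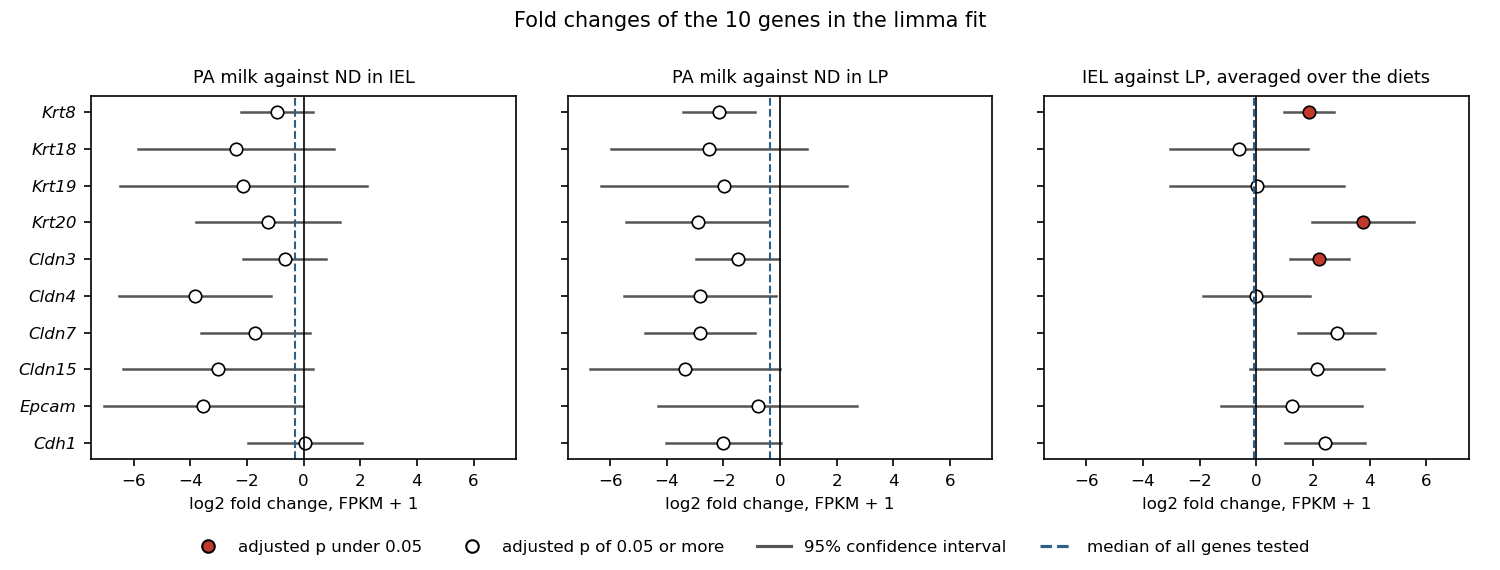
Log2 fold change of each of the 10 genes in the limma fit on log2(FPKM + 1), with its 95% confidence interval, for PA milk against ND in IEL, PA milk against ND in LP, and IEL against LP. Filled points have an adjusted p under 0.05 and the dashed line is the median of all genes tested. All 10 points lie left of 0 in LP, from -3.36 to -0.79, and only Krt8, Krt20 and Cldn3 in the layer comparison are filled.

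IEL was compared with LP, averaged over the diets, for the relative level of these 10 genes in each layer. Markers of single epithelial cell types did not all share their direction, as described further down. Krt8, Krt20 and Cldn3 were higher in IEL past the threshold. Krt20 had a log2 fold change of 3.77 ± 0.84 (SE, 95% confidence interval 1.98 to 5.56, limma adjusted p = 0.0469), Cldn3 had 2.23 ± 0.49 (1.2 to 3.27, limma adjusted p = 0.0413) and Krt8 had 1.87 ± 0.42 (0.97 to 2.76, limma adjusted p = 0.0484). These were 3 of the 10 genes, against 0.464% of all genes called higher in IEL and 0.416% called lower. Cldn7, at 2.84 ± 0.64 (limma adjusted p = 0.0505), and Cdh1, at 2.42 ± 0.67 (limma adjusted p = 0.0958), lay just outside the threshold. Those 5 genes were at an unadjusted p under 0.05, against 6.1% of all genes in that direction. Cldn15 had 2.13 ± 1.12 and Epcam 1.25 ± 1.17, while Krt19 at 0.01 ± 1.45, Cldn4 at -0.01 ± 0.89 and Krt18 at -0.60 ± 1.15 had no direction beyond their error. In all, 8 of the 10 were higher in IEL, against 46.6% of all genes, with a median of 2.0 against -0.08. Cdh1 and Krt20 did not overlap between the layers, against 0.632% of all genes.

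The layer calls depended on single libraries and settings. None of the 10 genes was called with a pseudocount of 0.1, with no filter, with scaling on leukocyte genes, with limma-voom or with a replicate block. With that block the limma adjusted p was 0.169 for Krt8, 0.132 for Krt20 and 0.118 for Cldn3. Here the block paired the IEL and LP libraries of the same diet and number as if from the same mouse, which the labels do not state. Leaving out any 1 of 9 libraries left none of the 10 genes called. Without PA milk IEL replicate 1, Cldn3 alone was called (limma adjusted p = 0.0275), without PA milk LP replicate 2 there were 4, and without PA milk IEL replicate 2 there were 6. Without both replicate 2 libraries of PA milk, 7 of the 10 were called: Cldn7 at 3.81 (limma adjusted p = 0.000429), Krt8 at 2.51 (0.000937), Krt20 at 4.72 (0.00173), Cldn15 at 2.64 (0.00582), Epcam at 2.75 (0.00985), Cldn3 at 2.51 (0.011) and Cdh1 at 2.07 (0.0339). The count of all genes called was then 826, against 110 with every library in. Over the alternatives, adjusted p ran from 0.000242 to 0.977 for Krt8, from 0.000553 to 0.697 for Krt20 and from 0.00286 to 0.308 for Cldn3. The upper ends are those of limma-voom, which gave Krt8 an SE of 8.22 and Krt20 one of 3.92, against 0.42 and 0.84 in the reported fit. In the other settings the highest limma adjusted p was 0.169 for Krt8, 0.159 for Krt20 and 0.125 for Cldn3.

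Summed, the 10 genes made up a measurable part of each library. Their FPKM was 0.657%, 0.136% and 1.10% of all FPKM in PA milk IEL and 1.34%, 0.787% and 1.0% in ND IEL. In PA milk LP it was 0.111%, 0.162% and 0.0424%, and in ND LP 0.297%, 0.305% and 0.672%. The means were 0.631% ± 0.483 in PA milk IEL, 1.04% ± 0.279 in ND IEL, 0.105% ± 0.060 in PA milk LP and 0.425% ± 0.214 in ND LP (SD, n = 3). Every PA milk LP library was below every ND LP library, and the IEL diets overlapped. As a difference between group means of log2 percent, PA milk minus ND was -1.14 in IEL and -2.11 in LP, and IEL minus LP was 1.85, beside a pooled SD within groups of 1.01. Leaving out each library gave -1.77 to -0.26 in IEL, -2.52 to -1.55 in LP and 1.54 to 2.3 between the layers. The value of -0.26 is that without PA milk IEL replicate 2.

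**Figure D3:**
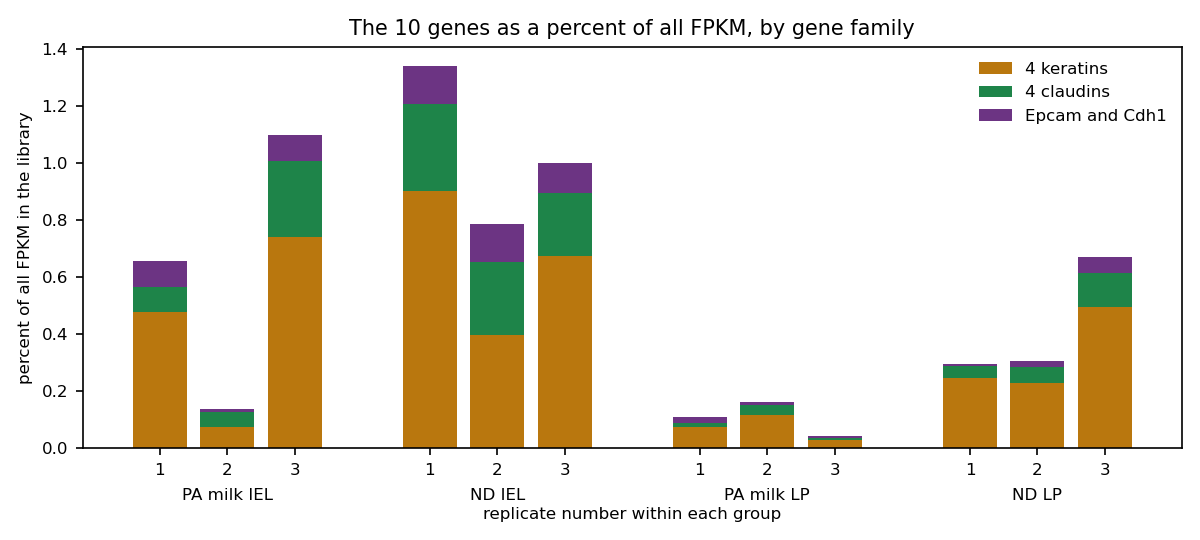
Summed FPKM of the 10 genes as a percent of all FPKM, on the y axis, in each of the 12 libraries, with the keratins, claudins and the pair Epcam and Cdh1 stacked. PA milk LP libraries reach at most 0.162%, ND LP libraries at least 0.297%, and keratins form the largest block in every bar.

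The leukocyte sum ranged less than that of the epithelial genes. The 20 common leukocyte genes, led by Coro1a and Laptm5, summed to between 1748 and 5137 FPKM, against 321 to 9382 FPKM for the 10 epithelial genes. The ratio of the epithelial to the leukocyte sum was 1.26, 0.205 and 5.02 in PA milk IEL, 5.50, 2.77 and 2.65 in ND IEL, 0.392, 0.360 and 0.103 in PA milk LP, and 0.482, 0.682 and 2.05 in ND LP. All PA milk LP libraries were below all ND LP libraries in this ratio too. Within the 10 genes, keratins took 50.3% to 82.8% of the summed FPKM, claudins 10.7% to 38.5% and the adhesion pair 3.37% to 21.5%. Krt19 in place of Krt8 was the highest gene in PA milk LP replicate 1 and ND LP replicate 2.

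The 10 genes varied together over the libraries to different degrees. Of the 45 pairs, Pearson's r of log2(FPKM + 1) over 12 libraries was positive in every one, with a median of 0.54 and a range from 0.07 (Cdh1 and Krt18) to 0.96 (Krt8 and Cldn7). These values describe libraries that share diet, layer and depth, and carry no p. Krt8, Cldn7, Krt20 and Cldn3 were closest, with r of 0.89 to 0.96 in all their pairs. High values were also found for Krt18 and Krt19 (0.91), Epcam and Cldn15 (0.85), Epcam and Krt19 (0.82) and Epcam and Krt18 (0.79), while Krt8 and its partner Krt18 were at 0.54. Epcam, Krt18, Krt19 and Cldn15 are the genes that were at or near 0 in PA milk IEL replicate 2 but not in the other IEL libraries. Without the 2 libraries of fewest genes, PA milk IEL replicate 2 and PA milk LP replicate 2, the pairs ran from -0.27 to 0.97 with a median of 0.68. Epcam and Krt18 were then at 0.27 and Epcam and Krt19 at 0.48, whereas Epcam was at 0.82 with Krt8, 0.82 with Krt20, 0.86 with Cldn3 and 0.84 with Cldn7, and Cldn15 at 0.95 with Krt8. Without ND IEL replicate 2 as well, which had 7863 genes at 1 FPKM, the median was 0.86 and 37 of 45 pairs were above 0.5, with a lowest value of -0.06 for Epcam and Cldn4. Against the mean of the other 9 genes in all 12 libraries, Krt8 had the highest r, 0.92, and Cldn4 the lowest, 0.42.

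**Figure D4:**
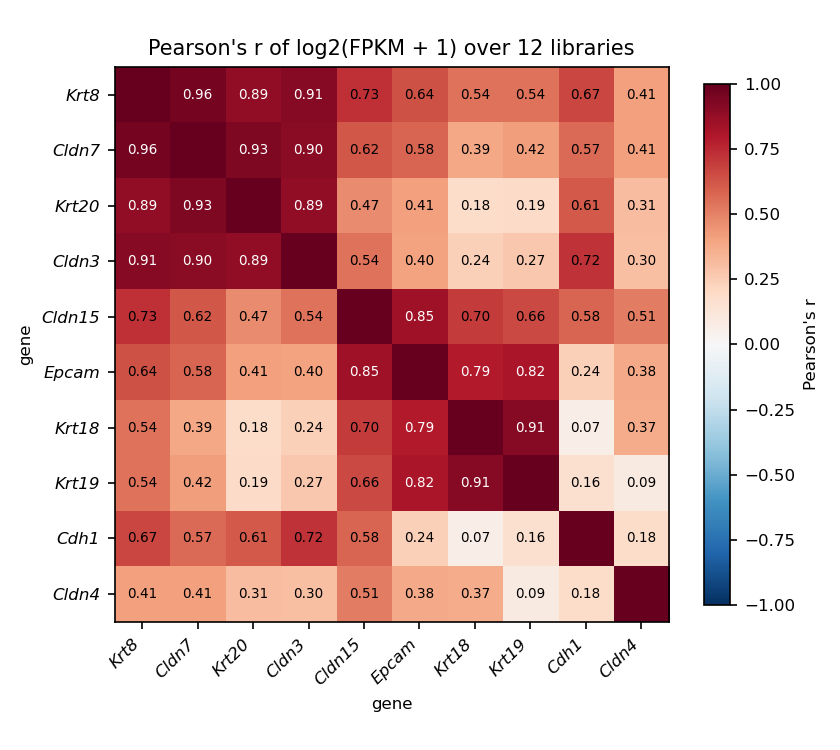
Pearson's r of log2(FPKM + 1) over the 12 libraries for each pair of the 10 genes, named on both axes, with the value in each cell and the colour scale from -1 to 1. Krt8, Cldn7, Krt20 and Cldn3 form a block of 0.89 to 0.96, and the pairs of Epcam, Krt18 and Krt19 are at 0.79 to 0.91 with all 12 libraries in.

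Genes outside the set whose pattern was most like it were sought among 12492 tested genes by r to the mean log2(FPKM + 1) of the 10 over 12 libraries. The 10 most alike were Oit1 (0.966), 2510049J12Rik (0.964), Rnf128 (0.959), Lgals4 (0.954), Scin (0.953), AA986860 (0.952), Ano9 (0.951), Unc5cl (0.949), Sult1d1 (0.948) and Cdkn2b (0.946). An r above 0.9 was reached by 55 genes, and the median over all was 0.17. Lgals4, which encodes the intestinal epithelial lectin galectin-4, was at 466, 102 and 1333 FPKM in PA milk IEL, 1220, 1602 and 1110 in ND IEL, 224, 179 and 35.3 in PA milk LP, and 551, 260 and 658 in ND LP. Its log2 fold change was -1.70 in IEL and -2.0 in LP for the diet, and 1.66 between the layers. As Lgals4 was picked for its likeness to the set in these libraries, its values are no independent support.

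The wider keratin and claudin families were mostly at 0. Of 47 other keratin genes, 33 were listed at 0 in all 12 libraries and 3 reached the level for testing, namely Krt7, Krt10 and Krt23. Krt7, a keratin of ducts and other simple epithelia, was at 0, 0.0662 and 0.265 FPKM in PA milk LP and at 113, 8.76 and 31.3 in ND LP, a log2 fold change of -4.90 ± 1.72 (limma adjusted p = 0.978). Of 22 other claudins, 12 were at 0 in every library and 5 were tested, the highest being Cldn5, Cldn25, Cldn23 and Cldn2. Cldn5, the claudin of endothelium, was the only one called. It was at or below 0.361 FPKM in all IEL libraries, at 382, 0.0755 and 499 in PA milk LP and at 112.5, 333 and 63.6 in ND LP, a log2 fold change between IEL and LP of -6.33 ± 1.27 (limma adjusted p = 0.0276). Its direction was opposite to that of Cldn3 and Krt8, and PA milk LP replicate 2 was the only LP library in which it was near 0.

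Other genes of the epithelial junctions had lower fitted levels in PA milk IEL without passing the test, in part through PA milk IEL replicate 2, where the tight junction genes summed to 0.222 FPKM with 0 of them at 1 FPKM. Of 14 tested tight junction genes, 13 were lower in IEL (median -2.23, and -0.97 without PA milk IEL replicate 2) and 13 in LP (median -1.74). Among them were Lsr, of tricellular junctions, at -2.73 ± 1.36 in both layers, and Crb3, of the Crumbs polarity complex, at -2.78 ± 1.59 and -3.31 ± 1.59 in IEL and LP. F11r, which encodes JAM-A and is also made by leukocytes and endothelium, had -2.80 ± 1.76 and -1.25 ± 1.76, and Tjp3, a scaffold protein, -2.37 ± 1.44 in both. Of 8 adherens junction genes, 8 were lower in IEL (median -1.52, and -0.33 without that library) and 3 in LP (median 0.09, which ran from -0.27 to 0.49 on leaving out each library). Cdh17, the intestinal liver-intestine cadherin, had -2.43 ± 1.70 and -4.43 ± 1.70, whereas the catenin Ctnnb1, which every cell uses, had -0.12 ± 0.69 and 1.32 ± 0.69. Ctnna1 had -2.27 ± 1.72 and -1.29 ± 1.72, and Pvrl2 -1.44 ± 1.10 and 0.47 ± 1.10. Of 12 desmosome and hemidesmosome genes, 12 were lower in IEL (median -0.99, and -0.73 without that library), against 60.5% of all tested genes. In LP 8 were lower, a share like the 62.2% of all tested genes. Their LP median was -0.33, with a range of -0.5 to 0.2 on leaving out each library, against -0.36 over all genes. Perp had -3.23 ± 1.56 in IEL and -1.77 ± 1.56 in LP. The others of highest level in that list were Pkp3 (-0.48 in IEL, -0.37 in LP), Itga6 (-1.61, 0.54) and Dsg2 (-1.23, -0.83).

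Matriptase, encoded by St14, cuts EpCAM, and the inhibitors Spint1 and Spint2 hold it back. Of the 5 tested genes of this axis, 3 were lower in IEL, a share like the 60.5% of all genes (median -1.27, and -0.27 without PA milk IEL replicate 2), and 5 in LP (median -1.0, with a range of -1.62 to -0.59 on leaving out each library). St14 had -3.31 ± 1.53 in IEL and -1.27 ± 1.53 in LP, Spint1 -1.41 ± 1.22 and -0.22 ± 1.22, Spint2 -1.27 ± 0.65 and -1.0 ± 0.65, and Prss8 0.30 ± 1.48 and -0.92 ± 1.48. Of 19 tested epithelial transcription and splicing factors, 19 were lower in IEL (median -1.95, and -1.1 without PA milk IEL replicate 2) and 17 in LP (median -1.26, with a range of -1.74 to -0.88 on leaving out each library). Elf3 had -3.24 ± 1.53 and -0.63 ± 1.53, Klf5 -0.82 ± 0.71 and -1.56 ± 0.71, the caudal factor Cdx1 -2.32 ± 1.52 and -3.63 ± 1.52, and Rab25, a small GTPase of epithelial vesicles, -1.71 ± 1.58 and -3.24 ± 1.58. Between the layers, 13 of the 19 factors and 10 of the 14 tight junction genes were higher in IEL, with medians of 0.59 and 0.46, smaller than the 2.0 of the 10 structural genes. No gene of these 5 lists was called in any comparison.

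Markers of single epithelial cell types had patterns of their own beside the shared structural genes. The 8 enterocyte genes, led by Fabp2 and Apoa1, summed to 4275, 3271 and 36550 FPKM in PA milk IEL and 9598, 79360 and 16290 in ND IEL, but to between 43.2 and 728 in the 6 LP libraries. All 8 were higher in IEL (median 4.78), against 46.6% of all genes, and 5 were called, against 0.464% of all genes called higher. Among them were Apoa1 at 7.49 ± 0.78 (limma adjusted p = 0.000387) and Fabp2 at 5.02 ± 0.89 (limma adjusted p = 0.015). How calls of the marker lists depend on single libraries and settings was not tested. For the diet, 7 of the 8 were lower in PA milk in IEL (median -1.49) and 8 in LP (median -1.36), none called. The 7 goblet cell genes, led by Zg16 and Tff3, were all lower in IEL than in LP (median -2.10), none called. In LP 6 of them were lower in PA milk (median -5.15), with Tff3 at 21.5, 58.7 and 341 FPKM against 6695, 773 and 3989 in ND. The 6 Paneth cell genes, led by Defa24 and Lyz1, were all lower in PA milk in IEL (median -3.50) and 3 of 6 in LP (median -0.18). Between the layers, all 6 were lower in IEL (median -1.83), none called. Of the crypt stem cell genes 4 were tested, with medians of -1.96 and 0.80 in IEL and LP, and of the enteroendocrine genes only Chga, at -2.35 in IEL and -1.03 in LP. The tuft cell genes summed to at most 13.1 FPKM and none was tested.

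Genes of cells other than epithelium and leukocytes were listed in the same libraries. The stromal sum, led by Dcn and Acta2, was at most 2.0 FPKM in IEL and reached 2285 in LP, and the endothelial sum, led by Plvap, was 7.07 to 54.8 in IEL and 1.27 to 5737 in LP. Of the 8 stromal genes 0 were called between the layers. All 8 were lower in IEL at an unadjusted p under 0.05, which 1681 of the 12502 genes reached in either direction. Of the 8 endothelial genes 3 were called lower in IEL, against 0.416% of all genes. PA milk LP replicate 2 held 1.27 FPKM of endothelial and 10.6 of stromal genes, and ND LP replicate 1 held 0.196 of stromal genes. T cell genes, led by Lat and Cd3g, summed to 0.131 in PA milk IEL replicate 2, 0.160 in ND IEL replicate 2 and 0.187 in PA milk LP replicate 2, and to between 87.7 and 461.5 in the other 9 libraries. B and plasma cell genes, led by Igj and Cd79a, summed to between 11.1 and 18270 FPKM, and macrophage and dendritic genes, led by Lyz2 and C1qb, to between 287 and 12270. The genes of ILC3s and of the sort, led by Il22 and Id2, summed to 1960, 353 and 1092 FPKM in PA milk IEL, 326, 297 and 610 in ND IEL, 288, 163 and 400 in PA milk LP, and 779, 5365 and 892 in ND LP. The PA milk LP libraries were thus the lowest of the LP libraries both for the epithelial genes and for the ILC3 genes. The part of each of these cell types in the epithelial values was not tested.

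**Figure D5:**
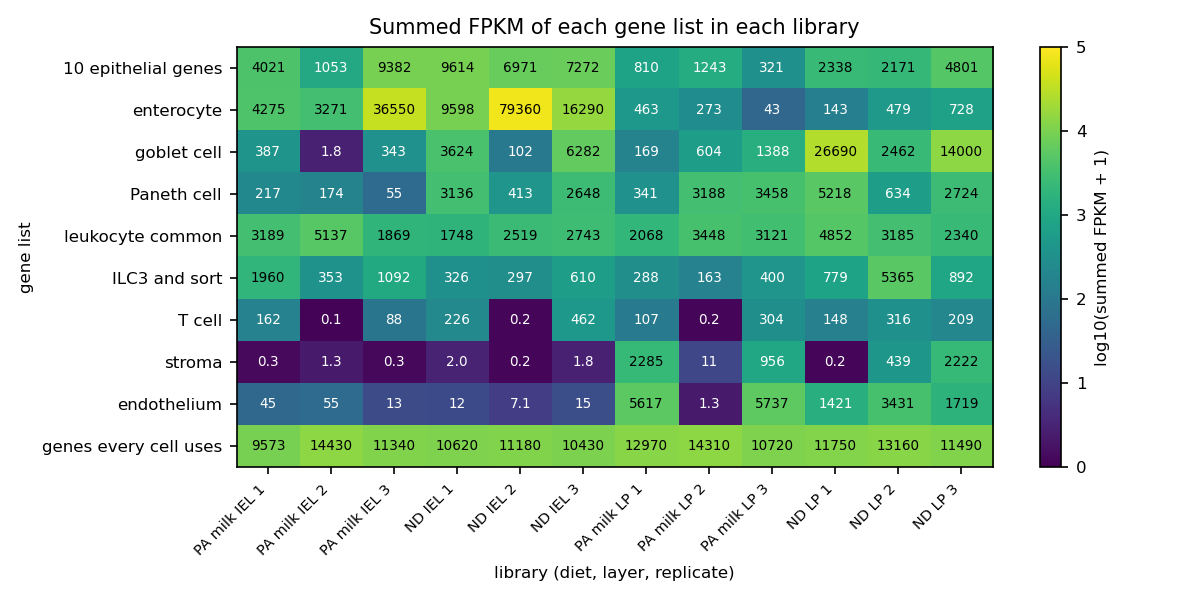
Summed FPKM of the 10 epithelial genes and of 9 marker lists (rows) in each of the 12 libraries (columns), printed in each cell and coloured by log10(summed FPKM + 1). Enterocyte genes are at least 3271 FPKM in every IEL library and at most 728 in every LP library, and T cell genes are near 0 in 3 libraries.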

How the data were processed

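RNA-seq of sorted intestinal ILC3s was analysed in 12 libraries, 3 for each diet and layer, grouped by the sample labels. The authors mapped reads to mm10 with TopHat2 2.1.1, Bowtie2 2.2.8.0 and SAMtools 0.1.18 and made FPKM values with Cufflinks 2.2.1 (Cuffdiff 2.2.1 is also named in the submitters' processing notes). The gene annotation is not given in the sources used here. The second table the authors deposited holds a scaled signal: read counts divided by a factor for each library and rounded, since its ratio to FPKM was equal within 1% between libraries for 89.2% of 2072 genes. All columns were mapped to samples, and no pair of libraries was identical.

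Low values lay at multiples of a step of 0.684 to 1.09, with 90.4% to 99.0% of low values no more than 0.05 from a whole multiple. The step was taken as 1 read for depth and for the floor of 3 reads.

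The 12502 genes that reached 1 FPKM in 3 or more libraries were tested with limma 3.58.1 (R 4.3.3) on log2(FPKM + 1), letting the variance follow a trend on the mean, in 1 fit of 4 group means. P-values were two-sided and adjusted by Benjamini-Hochberg over all genes tested, with a threshold of 0.05. The script was tested on simulated data. Tables and plots were made with Python 3.11.15, numpy 2.4.6, pandas 2.3.3, scipy 1.17.1 and matplotlib 3.10.9.

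The 10 genes, the gene lists and the tests were chosen with earlier results of these data known. Named from each pathway list were the 4 tested genes of highest mean FPKM and any gene past the threshold, from each marker list the 2 of highest mean, and the 10 genes most like the set by Pearson's r. Lists were described by counts and medians, with no test of their own. Gene coordinates were taken from GENCODE vM21 (GRCm38, also called mm10). The alternatives were other pseudocounts, filters, scalings, sample weights, a replicate block, limma-voom and leaving out libraries. Values of 1 further gene of the marker lists are not reported here, and it stays in the fits and in the sums over its list.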

Additional observations from a re-analysis of the deposited data

Results flagged for a closer look

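In 2 of the genes named by the rules above, every PA milk library lay on one side of all ND libraries in IEL and on the other side in LP. Other genes were not searched, and the share of all tested genes with this pattern was not counted. Neither passed the limma test of the difference between the layers after Benjamini-Hochberg adjustment, so a difference between the layers is not shown.

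Id2, a transcription factor that all innate lymphoid cells need and a marker of the sorted cells, was at 750, 326 and 586 FPKM in PA milk IEL against 110, 217 and 273 in ND IEL. The LP values were 190, 95.2 and 240 FPKM for PA milk, and 539, 455 and 546 for ND. Its log2 fold change was 1.48 in IEL and -1.64 in LP, and the diet effect in LP minus that in IEL was -3.12 ± 0.72 (SE, limma adjusted p = 1).

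Itga6, the integrin alpha 6 chain of the hemidesmosome, which leukocytes and endothelium also make, was at 5.6, 0.0182 and 9.5 FPKM in PA milk IEL against 15.6, 9.99 and 10 in ND IEL. The LP values were 22.0, 16.8 and 17.3 FPKM for PA milk, and 11.9, 15.9 and 9.99 for ND. The difference between the layers in the diet effect was 2.16 ± 1.58 (SE, limma adjusted p = 1).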

How the results depend on the processing

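The lower levels in PA milk LP kept their direction for all 10 genes in every one of 220 alternative values, with 0 of the 10 past the threshold in each. Many of these 220 values could not turn. The filters, the block, the fit on LP libraries alone and leaving out an IEL library leave an LP fold change as it was. In IEL 10 of 220 alternative values turned, those of Cdh1, Krt18 and Krt19. There too, many values could not turn, such as those from leaving out an LP library. In the layer comparison 47 values lost a call, all of them of Krt8, Krt20 or Cldn3, the only genes of the 10 called in the reported fit. The 210 values of that comparison also cover the genes that had no call to lose. Of the 210, 12 gained a call and 17 turned, the latter of Krt18, Krt19 and Cldn4. For the diet effect in LP minus that in IEL 27 of 210 values turned. In these comparisons too, the filters and the block left each fold change as it was. The cause of these shifts was not tested.

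Leaving out each library gave 0 to 1 genes past the threshold in IEL, 0 to 8 in LP, 0 each time for the difference between the layers and 37 to 521 for IEL against LP. It moved Cdh1 in IEL between -0.19 and 0.29, Krt18 between -4.13 and 0.37 and Krt19 between -3.95 and 1.27. For IEL against LP, Krt18 ran from -1.47 to 0.78, Krt19 from -0.90 to 1.71 and Cldn4 from -0.61 to 0.42. For the diet effect in LP minus that in IEL, Epcam ran from -0.22 to 4.41, Krt18 from -2.87 to 1.63, Krt19 from -3.25 to 1.97, Cldn4 from -0.18 to 1.87 and Cldn15 from -2.68 to 1.28.

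A pseudocount of 0.1 gave 58 genes past the threshold for IEL against LP, Krt19 at -0.26 there and Krt18 at 0.97 for the difference between the layers. No filter gave 30 genes for IEL against LP. Upper quartile scaling put Cdh1 in IEL at -0.01. Scaling on leukocyte genes put Cdh1 in IEL at -0.14, Cldn4 at 0.21 for IEL against LP, and Krt18 and Cldn15 at 0.64 and 0.30 for the difference between the layers. It moved the median of all genes to -0.40 in IEL and -0.01 in LP. Sample quality weights gave 3 genes in LP, 982 for IEL against LP, Cdh1 in IEL at -0.10, Krt18 for IEL against LP at 1.01 and Krt19 for the difference between the layers at -1.53.

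Without PA milk IEL replicate 2 and PA milk LP replicate 2, a choice made after seeing the data, 826 genes were called for IEL against LP with Krt18 at 0.85, Krt18 and Krt19 in IEL were at 0.37 and 1.27, and Epcam and Krt19 at -0.23 and -3.62 for the difference between the layers. Limma-voom on reads estimated from the step, also added after seeing the data, gave 3 genes in LP, Cdh1 in IEL at -0.08, Krt19 for IEL against LP at -0.75, and Krt18 and Cldn15 at 1.96 and 0.06 for the difference between the layers. It moved the median of all genes to -0.97 in IEL and -1.01 in LP. The planned count models edgeR and DESeq2 were not run, because the table holds rounded scaled values and not whole reads. By Spearman's rho in place of Pearson's r, 3 of the 10 genes most like the set were shared.

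With the replicate number as a block, 3 genes passed in LP. For the comparisons across layers the block was diet and number together, which pairs IEL and LP libraries as if from the same mouse. With it, 1 gene passed for the difference between the layers and 29 for IEL against LP, with none of the 10 epithelial genes among the last. Libraries of the same number did not deviate together (correlations of -0.12 to 0.07 between the diets and -0.03 to 0.06 between the layers, 0 of 6 pairs above 0.1 in each), and the labels do not say whether the same number in IEL and LP is the same mouse. Replicate 2 had the fewest genes of PA milk in both layers. Values under 3 reads, as for Cldn4 in 5 libraries, have no order at this depth.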
